A study of Homo sapiens with 6 samples.

Results

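The mRNA levels of 38 genes that encode integrin alpha subunits and focal adhesion proteins were compared between RD cells expressing a scrambled shRNA and RD cells expressing an shRNA against TAK1. The set holds 12 alpha subunits and 26 proteins of the adhesion site. Genes were taken by symbol from the 58735 rows of the count table, and all 38 symbols were found. A gene entered the test when its counts passed a filter on low expression, which 15935 genes did. Of the set, 37 genes passed and 1 did not, because ITGA8 had 0 counts in each of the 6 samples, which at counting error alone allows up to 3 counts per sample.

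RD is an established human cell line of embryonal rhabdomyosarcoma, a soft tissue tumor whose cells carry muscle regulators but do not mature into muscle fibers. Both groups carried a lentiviral shRNA vector, with a scrambled sequence in the control group (3 samples) and TAK1 shRNA in the other (3 samples). The knockdown samples represent 1 shRNA in 1 cell line, and RNA was measured by bulk poly(A) RNA-Seq. The labels do not say whether the numbered samples came from separate cultures, so p-values measure the spread between these samples, which may be technical. In bulk RNA, fewer cells of a kind and less RNA per cell cannot be told apart.

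Integrins are receptors made of an alpha and a beta chain, and the alpha chain largely sets which matrix protein is bound. Talin and kindlin bind the short tail of the beta chain and switch the receptor on, and vinculin, alpha-actinin, filamin and tensin tie the complex to actin. Paxillin, focal adhesion kinase, SRC and the complex of ILK, PINCH and parvin assemble there and pass the signal on. In skeletal muscle the laminin receptor with the alpha7 chain anchors the fiber to its basement membrane.

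Total counts ranged from 28839898 to 34469323 per sample, and counts are given below as CPM, counts scaled to a common library size with TMM factors. MAP3K7, the gene for TAK1, was at 77.9, 76.5 and 77.6 CPM in the scrambled shRNA samples and at 30.5, 33.6 and 29.9 CPM in the TAK1 shRNA samples, a log2 fold change of -1.30 ± 0.062 (SE). Of 9 muscle markers, 8 had a mean over 1 CPM and MYF5 had 0 counts in all samples. The summed muscle markers were at 2285 to 2316 CPM in control cells and 2211 to 2354 CPM in knockdown cells. Markers of epithelium (CDH1 and KRT19 at 0) summed to at most 0.603 CPM and those of leukocytes (CD3E at 0) to at most 0.106 CPM. Endothelial markers (CDH5 and KDR at 0) summed to 2.98 to 3.65 CPM in control cells and 1.78 to 2.69 CPM in knockdown cells, nearly all of it TEK. The fibroblast list summed to 472 to 508 CPM in control cells and 487 to 575 CPM in knockdown cells, nearly all of it COL1A1. Of its 5 genes, 3 had a mean over 1 CPM (COL1A1, LUM and DCN), while DPT was at 0 and PDGFRA below 1 CPM.

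Of the 37 tested genes, 12 fell and 3 rose in TAK1 knockdown cells. A gene was called lower or higher when the quasi-likelihood test of edgeR gave an adjusted p (Benjamini-Hochberg, over all 15935 genes) under 0.05 and its log2 fold change was at least 0.25 in size. The 12 genes that fell, FERMT2, LIMS1, PXN, ITGAV, GIT1, ACTN4, ITGA7, FLNA, PTPN12, TGFB1I1, TNS3 and VCL, are 32.4% of those tested, beside 11.3% of all genes. The 3 that rose, TNS1, SRC and ITGA1, are 8.11%, beside 11.8% of all genes. The remaining 22 were not called. Of these, 6 had an adjusted p under 0.05 but a smaller fold change, and 16 did not reach that p.

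The median log2 fold change of the 37 genes was -0.14, against 0.018 over all genes tested, with 26 genes below 0 and 11 above. In 26 genes (70.3%, beside 43.9% of all genes) the samples of the groups did not overlap. The alpha subunits gave 2 lower (18.2%) and 1 higher (9.09%) of 11 tested. The adhesion proteins gave 10 lower (38.5%) and 2 higher (7.69%) of 26. Over all genes these shares were 11.3% lower and 11.8% higher, so those of the alpha subunits were nearer to them. Across all genes, 51.0% of the calls were higher, and 62.9% when libraries were scaled by total count alone. The set then gave 12 lower and 4 higher. Of the 8 muscle markers tested, MYOD1, MYOG and MYMK rose and CHRNA1 fell, and the part of any marker gene's shift in the results was not tested. Just inside the fold threshold lay VCL at -0.30 and ITGA1 at 0.29, and just outside it lay ITGA9 at -0.25 (unrounded size under the threshold) and ITGA3 at -0.24.

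**Figure D1:**
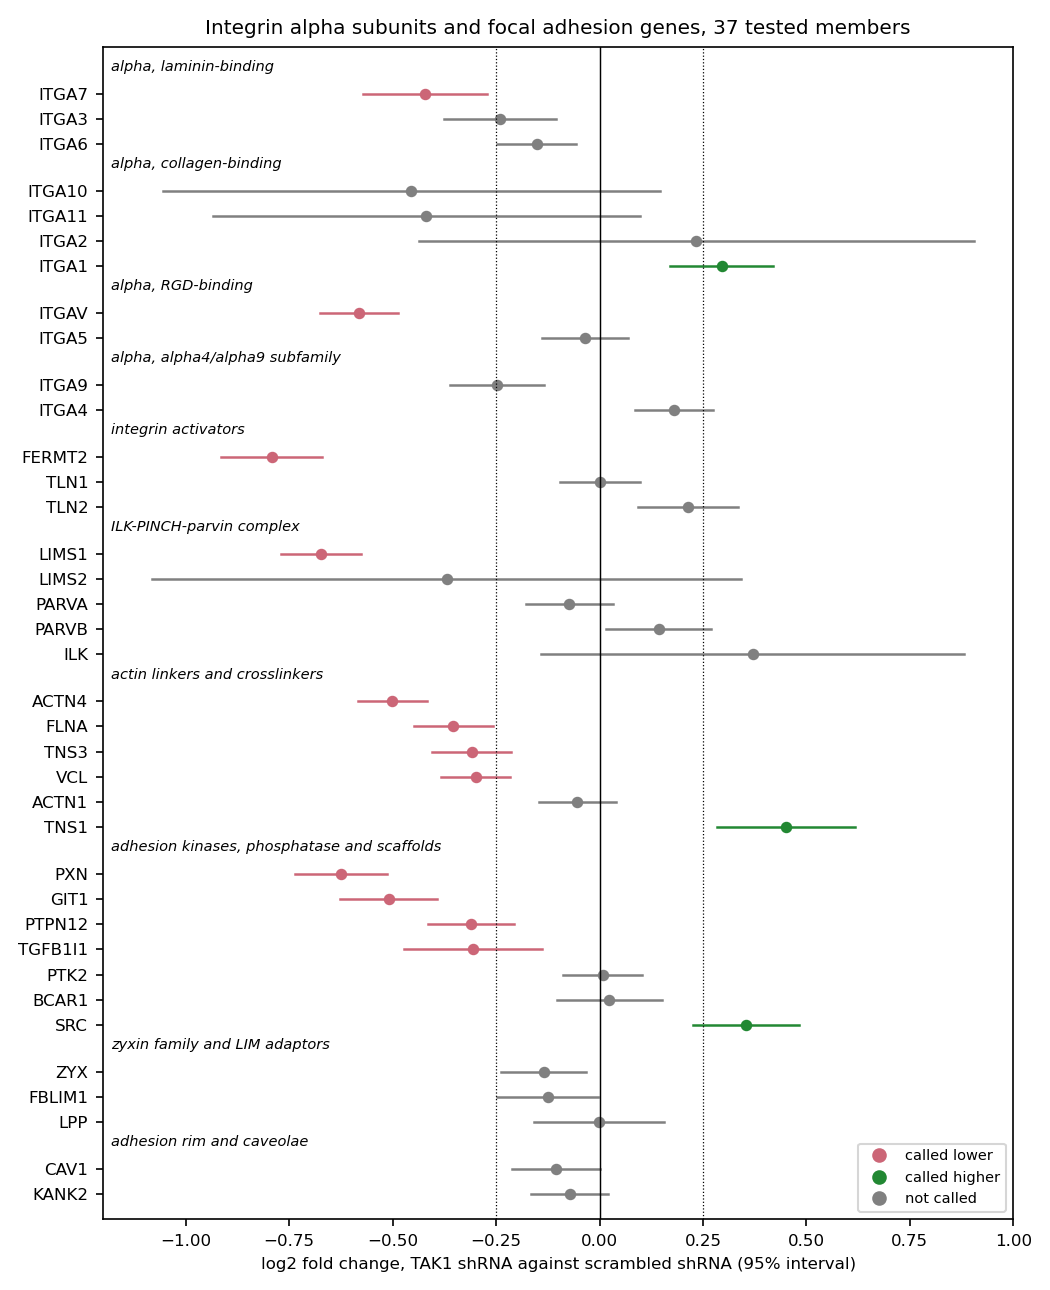
Log2 fold change of TAK1 shRNA against scrambled shRNA (x axis; points, with 95% intervals as bars) for the 37 tested genes, grouped by role, with dotted lines at the fold threshold of 0.25. FERMT2 lies farthest to the left at -0.79, TNS1 is the highest called gene at 0.45, and the wide intervals belong to ITGA2, ITGA10, ITGA11, LIMS2 and ILK, all near 1 to 3 CPM.

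Among the alpha subunits that recognize the RGD motif of fibronectin and vitronectin, ITGAV was lower in knockdown cells and ITGA5 was not called. ITGAV (chr2:186590010-186680901 on GRCh38, as all gene positions here), whose chain joins several beta chains to bind vitronectin and latent TGF-beta, was at 309, 317 and 328 CPM in the scrambled shRNA samples and at 205, 215 and 218 CPM in the TAK1 shRNA samples. The groups did not overlap, and the highest knockdown sample was far from the lowest control sample. Its fitted level fell by 33.2%, a log2 fold change of -0.58 ± 0.045 (SE, adjusted p = 2.98e-10). ITGA5, the partner of ITGB1 in the classical fibronectin receptor, was at 108, 102 and 104 CPM in control cells and 106, 99.2 and 102 CPM in knockdown cells. The groups overlapped, and the log2 fold change of -0.035 had a 95% interval from -0.14 to 0.068. ITGA8, the remaining RGD-binding alpha chain of the set, had no counts.

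Among the laminin-binding alpha subunits, ITGA7 fell, and ITGA3 and ITGA6 were lower in every knockdown sample but by less than the fold threshold. ITGA7 (chr12:55684568-55716404), the alpha chain of the laminin receptor of muscle, was at 58.6, 66.5 and 67.1 CPM in control cells and 47.9, 53.3 and 42.3 CPM in knockdown cells. The second knockdown sample was the highest of its group and still lay below the lowest control sample. The log2 fold change was -0.42 ± 0.073 (SE, adjusted p = 6.3e-05). ITGA6, which binds laminin with ITGB1 or ITGB4, was at 170, 164 and 167 CPM against 150, 147 and 154 CPM, a log2 fold change of -0.15 ± 0.046 (SE) with an adjusted p of 0.0132. ITGA3, the receptor chain for the laminins of basement membranes, was at 61.5, 56.3 and 59.3 CPM against 52.3, 52.6 and 45.0 CPM. Its log2 fold change was -0.24 ± 0.066 (SE, adjusted p = 0.00577), and it passed the fold threshold when scrambled shRNA sample 2, TAK1 shRNA sample 1 or TAK1 shRNA sample 2 was left out, at -0.28, -0.27 and -0.28.

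Among the collagen-binding alpha subunits, ITGA1 rose and the other three had low counts. ITGA1 (chr5:52787916-52959209), a receptor chain for basement membrane collagen, was at 51.2, 53.3 and 51.6 CPM in control cells and 59.2, 64.4 and 67.8 CPM in knockdown cells. All control samples lay close together, and all knockdown samples lay above them. The log2 fold change was 0.29 ± 0.061 (SE, adjusted p = 0.00045). Without TAK1 shRNA sample 3 it was 0.24 and no longer passed the fold threshold, and 13.2% of its exonic bases overlap another annotated gene. ITGA2, ITGA10 and ITGA11, also collagen receptor chains, had group means between 1.12 and 2.03 CPM. Their log2 fold changes of 0.23, -0.45 and -0.42 had 95% intervals that span 0, the widest from -0.44 to 0.90 for ITGA2, so differences of this size were not detectable at this depth.

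ITGA4 and ITGA9 form a subfamily of alpha chains that bind VCAM1 and, respectively, fibronectin and tenascin. Knockdown samples lay above the control samples for ITGA4 and below them for ITGA9, and neither gene passed the fold threshold. ITGA4 was at 189, 192 and 198 CPM in control cells and 213, 216 and 226 CPM in knockdown cells, a log2 fold change of 0.18 ± 0.046 (SE, adjusted p = 0.00337), with 26.4% of its exonic bases shared with another gene, mainly CERKL. ITGA9 was at 137, 133 and 127 CPM against 114, 102 and 118 CPM, a log2 fold change of -0.25 ± 0.055 (SE, adjusted p = 0.000924). ITGA9 passed the fold threshold under 7 of 14 alternative settings, among them DESeq2 (-0.25) and limma voom (-0.25). The count ratio of ITGA4 to ITGA9 was 1.38 to 1.56 in the control samples and 1.86 to 2.11 in the knockdown samples.

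To compare the level of different subunits, CPM were divided by the length of each gene's annotated exons. On this scale ITGA6 was the most abundant alpha mRNA of the set in control cells, at 25.0 CPM per kb. ITGA4 (18.1), ITGAV (16.5), ITGA9 (16.0) and ITGA5 (14.2) followed. ITGA7 (7.06), ITGA3 (6.02) and ITGA1 (2.81) formed a lower tier, and the other chains of the set had means below 0.25 CPM per kb. In this order the samples of ITGAV and ITGA9 overlapped, as did those of ITGA10, ITGA11 and ITGA2. In knockdown cells ITGA6 (22.5) and ITGA4 (20.5) still led, ITGA5 (13.9) and ITGA9 (13.5) followed, and ITGAV was behind them at 11.0. The knockdown samples of ITGA5 and ITGA9 overlapped, and so did those of ITGA7 (5.27) and ITGA3 (5.10). Dividing by the longest annotated transcript instead put ITGAV first in control cells, at 40.0 CPM per kb, so this order depends on the length used.

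The alpha mRNAs of the set together summed to 106, 105 and 107 CPM per kb in the control samples. In the knockdown samples they summed to 95.6, 94.4 and 97.0 CPM per kb. The sum was lower in each knockdown sample, at 0.900 of the control mean. ITGAV contributed 15.5% of the sum in control cells and 11.5% in knockdown cells, and ITGA4 went from 17.0% to 21.4%. By ligand class, the RGD-binding share was 28.7% to 29.1% in the control samples and 25.8% to 26.1% in the knockdown samples. The laminin-binding share was 35.6% to 36.0% against 33.4% to 35.2%, the collagen-binding share 3.08% to 3.28% against 3.90% to 4.22%, and the share of ITGA4 with ITGA9 31.7% to 32.4% against 34.6% to 36.6%. The sample ranges of these 4 classes did not overlap between groups. They are shares of mRNA per length and do not measure receptors at the cell surface.

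The beta chains, which are shared by many alpha chains, differed by more than the alpha sum. ITGB1, the partner of most alpha subunits listed here, was at 287, 287 and 295 CPM in control cells and 109, 115 and 124 CPM in knockdown cells, a log2 fold change of -1.32 ± 0.050 (SE, adjusted p = 1.08e-15). ITGB5, a partner of ITGAV, went from a mean of 176 to 130 CPM (log2 fold change -0.43, SE 0.051). ITGB3, also a partner of ITGAV, fell from 1.39 to 0.316 CPM (log2 fold change -2.12, SE 0.39), and ITGB2, the leukocyte beta chain, rose from 3.01 to 4.16 CPM (0.46, SE 0.17). ITGB4, ITGB6 and ITGB8 were not called, with log2 fold changes of 0.26, 0.73 and -0.086 at 0.925 to 3.71 CPM, and ITGB7 was too low to test.

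Of the 7 beta chains tested, 3 were thus lower (42.9%, beside 11.3% of all genes) and 1 was higher (14.3%, beside 11.8%). Summed over 8 beta chains, the level per length was 47.2 to 49.3 CPM per kb in the control samples and 28.6 to 30.2 CPM per kb in the knockdown samples. The ratio of the alpha sum to the beta sum was 2.16, 2.19 and 2.26 in control cells and 3.19, 3.30 and 3.21 in knockdown cells. The ratio of the alpha sum to ITGB1 alone was 5.28 to 5.40 in the control samples and 11.3 to 12.7 in the knockdown samples. With the longest transcript as length the alpha to beta ratio was lower in both groups, with means of 1.79 and 2.81. Among 6 further alpha chains, most of them of leukocytes and none part of the alpha sum, ITGAE and ITGA2B were tested. Neither was called, and in control cells they were at 2.86 and 0.260 CPM per kb.

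**Figure D2:**
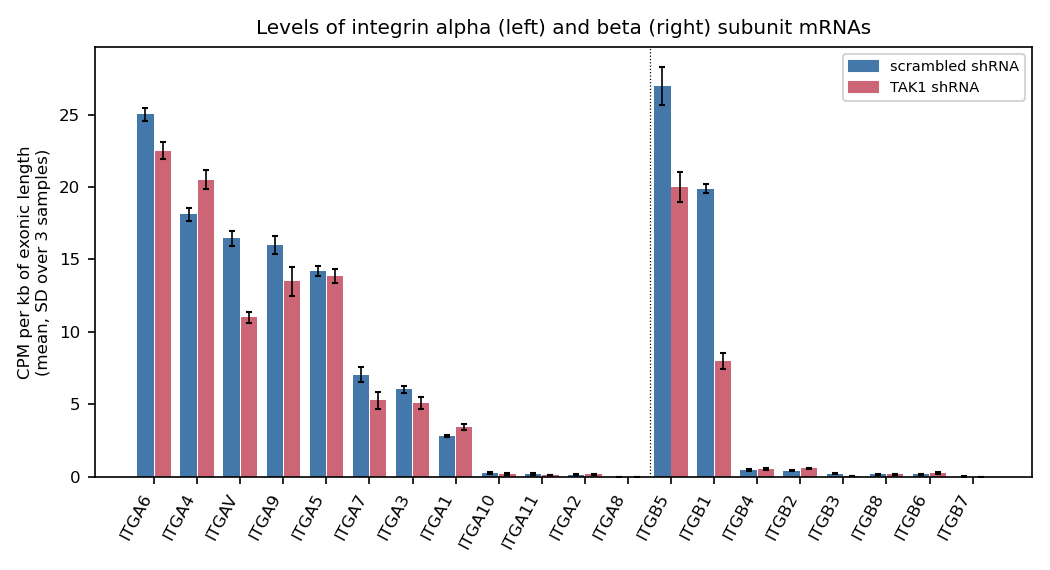
Mean level of the integrin alpha mRNAs of the set (left of the dotted line) and of the beta mRNAs (right). Levels are in CPM per kb of exonic length (y axis, linear from 0), with SD over 3 samples as error bars. ITGAV went from 16.5 to 11.0 and ITGB1 from 19.9 to 7.99, whereas ITGA4 went from 18.1 to 20.5.

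Of the 3 proteins that activate integrins, kindlin-2 fell and the talins were not called. FERMT2 (chr14:52857268-52952435), which encodes kindlin-2, had 89.6, 87.0 and 92.7 CPM in the control samples and 47.4, 54.2 and 53.7 CPM in the knockdown samples. All knockdown values were far below the control values. This was the largest fitted decrease of the 37 genes, 42.3%, with a log2 fold change of -0.79 ± 0.059 (SE, adjusted p = 1.31e-10). TLN1, the main talin, was at 430, 395 and 401 CPM against 407, 391 and 430 CPM, with overlapping groups and a log2 fold change of 0.0019 (95% interval -0.095 to 0.098). TLN2, the second talin, was at 86.5, 79.4 and 76.5 CPM against 94.1, 87.4 and 99.5 CPM. Its log2 fold change of 0.21 ± 0.058 (SE) had an adjusted p of 0.00599, stayed under the fold threshold, and passed it when libraries were scaled by total count (0.26), without scrambled shRNA sample 1 (0.26) and without TAK1 shRNA sample 2 (0.26). FERMT1, the epithelial kindlin, is not in the set and rose from 12.1 to 16.1 CPM (log2 fold change 0.42, SE 0.10).

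In the complex of ILK, PINCH and parvin, which joins integrin tails to actin, LIMS1 fell and the other members were not called. LIMS1 (chr2:108533671-108687246), which encodes PINCH1, was at 207, 211 and 213 CPM in control cells and 126, 135 and 134 CPM in knockdown cells. Control and knockdown samples were clearly apart. This gave a log2 fold change of -0.67 ± 0.047 (SE, adjusted p = 3.89e-11). The near-identical copies LIMS3 and LIMS4 had 0 to 6 counts in each sample, and how reads that match several copies were assigned is not given in the sources used here. LIMS2, which encodes PINCH2, was near 1 CPM in both groups (log2 fold change -0.37, 95% interval -1.08 to 0.34).

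PARVA, the parvin expressed in most tissues, was at 113, 114 and 110 CPM against 105, 103 and 113 CPM, with a log2 fold change of -0.073 (adjusted p = 0.295). PARVB, the parvin enriched in muscle, was at 46.8, 48.0 and 51.0 CPM against 53.7, 51.3 and 56.1 CPM, with every knockdown sample above the control samples and a log2 fold change of 0.14 (adjusted p = 0.076). ILK, the scaffold of the complex, had means of only 1.74 and 2.26 CPM (log2 fold change 0.37, adjusted p = 0.275). Of its exonic bases, 78.5% overlap other annotated genes, mainly TAF10 on the opposite strand, which was at 20.6 and 20.2 CPM. The part of this overlap in the low ILK counts was not tested. By qRT-PCR, the study reported significantly lower mRNA of a gene it names ILK1 in TAK1 knockdown RD cells.

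**Figure D3:**
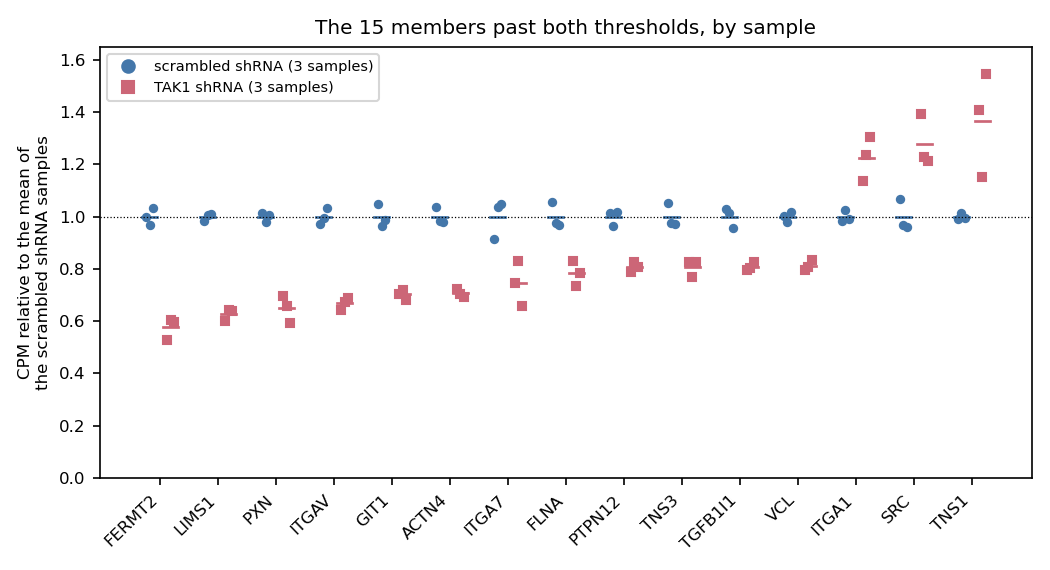
CPM of each sample divided by the mean of the scrambled shRNA samples (y axis, linear from 0) for the 15 genes that passed both thresholds, with short lines at the group means. All knockdown samples lie below the control samples for the 12 genes that fell and above them for ITGA1, SRC and TNS1.

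The sequence just upstream of the transcription start was examined for motifs of factors known to act on adhesion and cytoskeleton genes. RefSeq promoter windows of GRCh38.p14 were found for 32 of the 38 genes, giving 68 windows because some genes have several starts, and the 250 bases before each start were searched on both strands. ITGA3, ITGA7, ITGA9, PARVA, PTK2 and SRC had no entry. The CArG box, the site of serum response factor (CC, then 6 bases that are each A or T, then GG), occurred in 5 windows (7.35%), beside 1.16% of 35116 windows of all genes. The core GGAATG of TEAD factors occurred in 9 windows (13.2%, beside 11.9%), the AP-1 motif TGACTCA or TGAGTCA in 4 (5.88%, beside 4.20%), and the NF-kB consensus in 17 (25.0%, beside 12.7%). A match is a string of letters in these windows and was not measured as a bound site.

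The 5 stretches with a CArG box are shown because this motif had the largest ratio between its share here and its share of all windows, which was not tested. Each is 60 bases on the strand of the gene, 5′ to 3′, with the box in capitals, and the genes had different outcomes. FLNA and TGFB1I1 fell, and ACTN1, FBLIM1 and LPP were not called. The stretches lie at chrX:154374694-154374753 (FLNA, minus strand), chr16:31473129-31473188 (TGFB1I1, plus), chr14:68977703-68977762 (ACTN1, minus), chr1:15758674-15758733 (FBLIM1, plus) and chr3:188212504-188212563 (LPP, plus).
FLNA: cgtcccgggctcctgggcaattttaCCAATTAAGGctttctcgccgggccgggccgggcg
TGFB1I1: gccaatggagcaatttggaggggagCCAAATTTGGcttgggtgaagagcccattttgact
ACTN1: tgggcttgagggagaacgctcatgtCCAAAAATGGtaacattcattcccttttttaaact
FBLIM1: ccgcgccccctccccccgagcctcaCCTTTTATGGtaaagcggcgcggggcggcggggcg
LPP: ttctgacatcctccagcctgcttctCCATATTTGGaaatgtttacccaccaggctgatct
The box began 94 bases before the RefSeq start of its window in FLNA, 51 in TGFB1I1, 171 in ACTN1, 96 in FBLIM1 and 183 in LPP. The FLNA stretch lies outside the annotated gene, and the other stretches lie inside theirs, before internal starts. Which starts RD cells use was not tested. Of the 2 genes that fell, FLNA had a log2 fold change of -0.35 and TGFB1I1 of -0.31, while that of LPP was near 0 and its sign depended on the setting.

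Of the 6 proteins that link adhesions to actin, ACTN4, FLNA, TNS3 and VCL fell, TNS1 rose and ACTN1 was not called. ACTN4 (chr19:38647649-38731589), a non-muscle alpha-actinin that crosslinks actin, was the most highly expressed gene of the set per length, at 217 CPM per kb in control cells. It was at 1376, 1307 and 1300 CPM in the control samples and 959, 935 and 922 CPM in the knockdown samples. These groups did not overlap, and the log2 fold change was -0.50 ± 0.040 (SE, adjusted p = 4.99e-10). Of its exonic bases, 14.2% are shared with another gene, mainly CAPN12. ACTN1, the other non-muscle alpha-actinin, was at 237, 223 and 224 CPM against 222, 217 and 219 CPM, a log2 fold change of -0.054 with a 95% interval from -0.15 to 0.039.

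FLNA (chrX:154348524-154374634), a filamin that crosslinks actin and binds beta tails and has 1 of the CArG boxes, was at 1373, 1267 and 1259 CPM in control cells and 1078, 955 and 1020 CPM in knockdown cells. Sample 1 was the highest of each group, and the groups stayed apart. Its log2 fold change was -0.35 ± 0.046 (SE, adjusted p = 1.48e-06). VCL (chr10:73995193-74121363) encodes vinculin, which reinforces the link between talin and actin. It was at 863, 842 and 873 CPM against 685, 693 and 716 CPM, a log2 fold change of -0.30 ± 0.040 (SE, adjusted p = 2.26e-06), and 11.1% of its exonic bases are shared with another gene, mainly AP3M1. The spread within each group was small beside the difference.

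The tensins TNS1 and TNS3, which bind beta tails and actin, moved in opposite directions. TNS3 (chr7:47275154-47582558) was at 409, 379 and 377 CPM in control cells and 322, 298 and 320 CPM in knockdown cells, a log2 fold change of -0.31 ± 0.047 (SE, adjusted p = 1.07e-05). TNS1 (chr2:217799588-218033982) was at 32.5, 33.1 and 32.6 CPM in control cells and 46.1, 37.7 and 50.6 CPM in knockdown cells. Its second knockdown sample was the nearest to the control samples, yet above all of them. The log2 fold change of TNS1 was 0.45 ± 0.081 (SE, adjusted p = 0.000101), the highest among the called genes.

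Of the 7 kinases, phosphatases and scaffolds, PXN, GIT1, PTPN12 and TGFB1I1 fell, SRC rose, and PTK2 and BCAR1 were not called. PXN (chr12:120210439-120265771), which encodes the scaffold paxillin, was at 191, 184 and 189 CPM in control cells and 131, 123 and 111 CPM in knockdown cells. TAK1 shRNA sample 3 was the lowest, and all 3 were below the control samples. PXN had a log2 fold change of -0.62 ± 0.054 (SE, adjusted p = 1.5e-09). Of its exonic bases, 27.2% overlap another gene, mainly PXN-AS1 on the opposite strand, and whether counting used strand is not given in the sources used here. TGFB1I1 (chr16:31471585-31477960), which encodes the paxillin relative Hic-5, was at 20.9, 20.6 and 19.5 CPM against 16.2, 16.3 and 16.8 CPM, a log2 fold change of -0.31 ± 0.081 (SE, adjusted p = 0.00446).

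GIT1 (chr17:29573475-29594054), a paxillin-binding ARF GTPase-activating protein involved in adhesion turnover, was at 75.3, 69.5 and 71.0 CPM in control cells and 50.7, 51.7 and 49.1 CPM in knockdown cells, a log2 fold change of -0.51 ± 0.057 (SE, adjusted p = 1.34e-07). PTPN12 (chr7:77537295-77640069), the phosphatase that acts on BCAR1 and paxillin, was at 105, 99.9 and 105 CPM against 81.4, 85.3 and 83.4 CPM, a log2 fold change of -0.31 ± 0.051 (SE, adjusted p = 2.93e-05). In both genes all knockdown samples lay under all control samples. SRC (chr20:37344685-37406050), the tyrosine kinase that acts with focal adhesion kinase, was at 66.1, 60.0 and 59.5 CPM in control cells and 86.3, 76.1 and 75.0 CPM in knockdown cells. The first sample was the highest of each group, and the groups did not overlap. The log2 fold change of SRC was 0.35 ± 0.062 (SE, adjusted p = 7.17e-05).

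PTK2, which encodes focal adhesion kinase, was at 151, 151 and 153 CPM against 147, 154 and 156 CPM, a log2 fold change of 0.0074 with a 95% interval from -0.089 to 0.10. BCAR1, the substrate scaffold p130Cas, was at 101, 92.0 and 89.7 CPM against 106, 91.2 and 90.1 CPM, with a log2 fold change of 0.024 and an interval from -0.10 to 0.15. In both genes the samples of the groups overlapped. The intervals of PTK2, BCAR1, TLN1, ACTN1 and ITGA5 all lie within the fold threshold of 0.25 on either side of 0.

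None of the 5 remaining proteins passed both thresholds. ZYX, which encodes zyxin, a mechanosensitive LIM protein, was at 314, 300 and 300 CPM in control cells and 300, 264 and 268 CPM in knockdown cells, with a log2 fold change of -0.14 ± 0.049 (SE, adjusted p = 0.0369) and overlapping groups. LPP, a zyxin relative, was at 49.6, 51.3 and 50.3 CPM against 47.6, 44.7 and 58.8 CPM, and TAK1 shRNA sample 3 was the highest of all 6. FBLIM1, the filamin-binding protein migfilin, KANK2, a talin-binding protein of the adhesion rim, and CAV1, the coat protein of caveolae, had log2 fold changes of -0.13, -0.072 and -0.11 with adjusted p of 0.111, 0.241 and 0.123. Their knockdown samples lay below their control samples in each case, with fitted changes of -8.34%, -4.86% and -7.08%.

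Ratios of counts between related genes were computed within each sample, since such a ratio is not affected by the scaling of the library. Only their change between groups is read, because the size of a ratio also depends on gene length. The ratio of ACTN4 to ACTN1 was 5.81, 5.85 and 5.82 in the control samples and 4.32, 4.30 and 4.20 in the knockdown samples. The ratio of TNS3 to TNS1 was 12.6, 11.4 and 11.6 in control cells and 6.97, 7.90 and 6.33 in knockdown cells. In both pairs every knockdown ratio was below every control ratio.

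For the paxillins, the ratio of PXN to TGFB1I1 had a mean of 9.24 in control cells and 7.41 in knockdown cells. The ratio of FERMT2 to FERMT1 was 6.81 to 8.43 in the control samples and 3.08 to 3.41 in the knockdown samples. That of FLNA to FLNC, the muscle filamin, was 0.547 to 0.550 against 0.352 to 0.361. FLNC itself rose from 2368 to 2853 CPM (log2 fold change 0.27, SE 0.043). The ratio of KANK2 to KANK1 went the other way, from a mean of 13.1 to 19.1, and KANK1 fell (log2 fold change -0.62, SE 0.093). TLN1 to TLN2 went from a mean of 5.06 to 4.37, PARVA to PARVB from 2.32 to 1.99, and PTK2 to SRC from 2.46 to 1.94. Sample ranges did not overlap for any of these pairs, whereas ITGA6 to ITGA7 and ITGA6 to ITGA3 overlapped between groups.

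**Figure D4:**
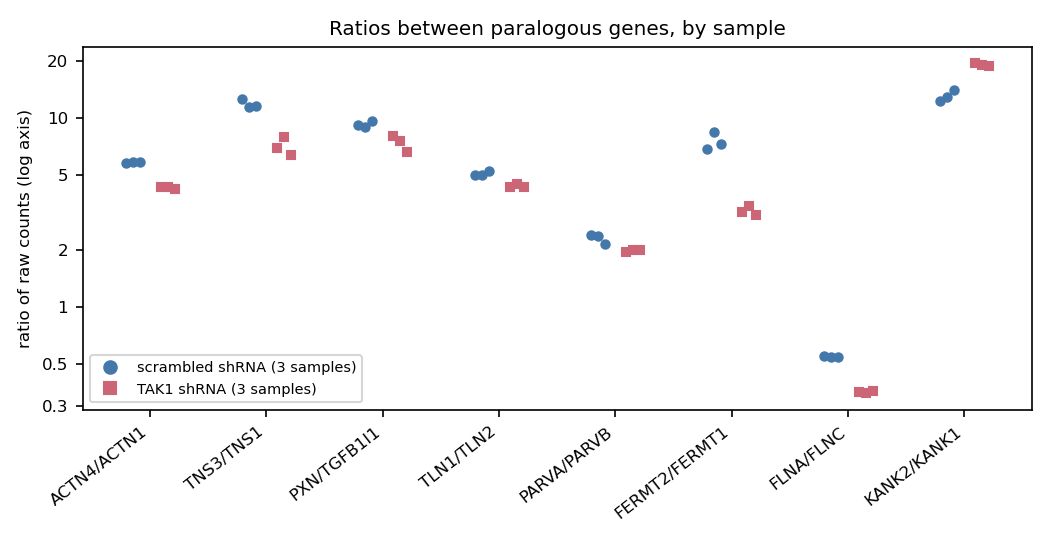
Ratio of raw counts between related genes in each sample (y axis, log scale) for scrambled shRNA (circles) and TAK1 shRNA (squares), 3 samples each. The knockdown samples lie below the control samples for 7 pairs, with means of 5.83 and 4.27 for ACTN4 to ACTN1, and above them for KANK2 to KANK1.

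Further genes of the same structures were counted from lists. Of 60 other focal adhesion genes, 56 were tested, with 13 lower (23.2%, beside 11.3% of all genes) and 7 higher (12.5%, beside 11.8%). Among the lowest were PDLIM5, an alpha-actinin-binding LIM protein, at 95.5 against 55.0 CPM (log2 fold change -0.80, SE 0.053), and KANK1. The highest were DLC1, a GTPase-activating protein of adhesions, at 10.6 against 14.9 CPM (0.48, SE 0.10), FERMT1, and WTIP, a LIM adaptor, at 13.7 against 17.2 CPM (0.33, SE 0.11).

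Of 35 genes for integrin ligands, 28 were tested, with 5 lower (17.9%, beside 11.3% of all genes) and 4 higher (14.3%, beside 11.8%). TGFBI, LAMC1 and COL4A1 were the lowest, with log2 fold changes of -0.64, -0.39 and -0.36. FN1, the ligand of ITGA5 and ITGAV receptors, rose from 1005 to 1382 CPM (0.46, SE 0.045), followed by LAMA5 (0.34) and COL3A1 (0.32). Of 14 regulators of integrin activity or trafficking, 13 were tested, with CD9 lower (-0.67) and DAB2 higher (0.25), 7.69% in each direction. The medians of these 3 lists were -0.043, -0.019 and -0.077, beside 0.018 over all genes.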

How the data were processed

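RNA from RD cells with scrambled shRNA (3 samples) or TAK1 shRNA (3 samples) was sequenced by the authors, who deposited raw counts of reads per gene without normalization. The submitters' processing notes name CASAVA and STAR, and the study's methods name GRCh38. The counter, the annotation release and strand use are not given in the sources used here. Groups were taken from the sample titles. The 38 genes and all other lists were chosen with earlier results of these data known, so no test over a list was made.

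One model was fitted to the whole table with edgeR 4.0.16 (R 4.3.3), using TMM scaling, the filterByExpr filter on low counts (minimum count 10), the quasi-likelihood test and Benjamini-Hochberg adjustment over 15935 genes. A call needed an adjusted p under 0.05 and a log2 fold change of at least 0.25 in size, the thresholds of the study's methods. The legend of the study's volcano plot gives 0.5 for the fold change. The SE of each log2 fold change was derived from its F statistic (fold change over root F). At 28839898 to 34469323 counts per sample, the spread between samples (common biological coefficient of variation 5.67%) was larger than counting error except in weakly expressed genes. Replicate files differed by more than sampling noise (chi-square per degree of freedom 2.88 to 8.74). Gene positions and exonic lengths came from GENCODE annotation of hg38, and promoter windows from RefSeq. The script was tested on simulated data with known changes. Alternatives were 3 normalizations, 2 filters, 2 fold thresholds, DESeq2 1.42.0, limma 3.58.1 (voom), a replicate block, another gene length and leaving out each sample. All genes of the set are accounted for, with full values for those that passed both thresholds or had the highest level of their role. Other genes are the 3 lowest and 3 highest called genes of each list averaging 1 CPM or more, and the beta chains. One gene that this rule names is not reported here. FERMT1, FLNC, KANK1 and TAF10 are named as paralogs or overlapping genes.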

Additional observations from a re-analysis of the deposited data

How the results depend on the processing

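Of the 15 called genes, 14 kept their call under all 14 alternative normalizations, filters, tests, the replicate block and omitted samples, and ITGA1 was lost without TAK1 shRNA sample 3. Of the 22 genes not called, 19 passed under none of them. A fold threshold of 0.5 left 680 lower and 735 higher genes, and in the set 6 lower (FERMT2, LIMS1, PXN, ITGAV, GIT1 and ACTN4) and 0 higher by edgeR (0 at an unadjusted p under 0.05, 0 by DESeq2 or voom). With no fold threshold 2734 genes were lower and 2569 higher, and in the set 16 were lower and 5 higher. The median of the set was -0.087 with scaling by total count (all genes 0.066) and -0.16 to -0.10 when 1 sample was left out, with -0.10 without TAK1 shRNA sample 2. The log2 ratio of the alpha sum was -0.15, -0.19 with the longest transcript as length and -0.10 with scaling by total count, and the RGD-binding share differed by -2.87 points, or -4.38 with the longest transcript. With all samples kept, signs changed for ITGA5 (0.013 with total count), TLN1 (-0.0034 with RLE, -0.0048 with no filter, -0.0034 with DESeq2), and LPP (0.017 with upper quartile, 0.047 with total count, 0.0038 with a minimum of 10 counts). With samples omitted, ranges spanned 0 for ITGA2 (-0.024 to 0.42), TLN1 (-0.045 to 0.040), PTK2 (-0.020 to 0.032), BCAR1 (-0.054 to 0.075) and LPP (-0.14 to 0.079). A replicate block gave 1848 lower and 1942 higher genes, with 12 and 3 in the set. The numbers share no stated origin, and same-numbered samples correlated at 0.16, 0.084 and 0.058, and not every sample correlated best with its own number.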
